A study of Macaca mulatta with 12 samples.

Results

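The let-7 family and miR-98 were described in 12 small RNA sequencing profiles of rhesus macaque (Macaca mulatta). All pre-miRNAs named mml-let-7a to mml-let-7g, mml-let-7i or mml-mir-98 in the study's list of pre-miRNAs were taken as members. These were 14 among 832 pre-miRNAs with a usable sequence, and when copies with the same 5' arm were counted once they gave 9 named members, i.e., mml-let-7a-1, mml-let-7b, mml-let-7c, mml-let-7d, mml-let-7e, mml-let-7f-1, mml-let-7g, mml-let-7i and mml-mir-98. The other entries were mml-let-7a-2, mml-let-7a-3, mml-let-7f-2 and a pair of let-7d-like entries, mml-let-7d-1 and mml-let-7d-2. No read was assigned to mml-let-7d-1 and only 1 to mml-let-7d-2, so that these are not described further. The animals were untreated, wild-type and 36 months old, and the profiles came from muscle, kidney, small intestine and large intestine (2 profiles each) and from liver, lung, spinal cord and occipital lobe (1 each). Altogether 2 animals were sampled, and the labels do not give the animal of each profile, so that the spread between profiles of a tissue may be partly technical.

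A miRNA gene is transcribed as a long primary transcript, cut to a hairpin (the pre-miRNA) by Drosha and cut again by Dicer, after which 1 of the 2 arms is usually loaded into an Argonaute protein. Bases 2 to 8 of the loaded strand, called the seed, pair with messenger RNAs and lead to their repression. The let-7 miRNAs are known for their rise as cells differentiate and for the repression of growth genes such as LIN28, HMGA2 and RAS genes. LIN28 in turn binds let-7 precursors and recruits terminal uridylyltransferases that tail them. Precursors of the family are divided by their 3' overhang. Those of group II, which are most of the family, receive a single U before Dicer cuts them, whereas those of group I (let-7a-2, let-7c and let-7e) do not need it.

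The 5' arms are shown first, since it is these strands that carry the family's reads. Capitals mark the seed.
let-7a-5p: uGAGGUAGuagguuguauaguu
let-7b-5p: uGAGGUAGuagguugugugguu
let-7c-5p: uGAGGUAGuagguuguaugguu
let-7d-5p: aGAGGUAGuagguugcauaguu
let-7e-5p: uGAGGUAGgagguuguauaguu
let-7f-5p: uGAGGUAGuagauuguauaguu
let-7g-5p: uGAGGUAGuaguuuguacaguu
let-7i-5p: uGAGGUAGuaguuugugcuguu
miR-98-5p: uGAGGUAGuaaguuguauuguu
All 9 share the seed GAGGUAG and differ only at nt 1 or after nt 8. Counted from 1 at the 5' end, let-7c differs from let-7a by 1 base (A19G), let-7e by 1 (U9G) and let-7f by 1 (G12A), and let-7b differs from let-7c by A17G with let-7c as the reference. A wrong base in a read of one of them can therefore look like another, and the size of this is given with the levels. The mature let-7a and let-7f sequences are made by several genes each, which cannot be told apart in reads of the mature sequence. In RefSeq's annotation of a newer macaque assembly than the one the study used, MIRLET7A-1, MIRLET7F-1 and MIRLET7D are neighbours, as are MIRLET7A-3 and MIRLET7B, and MIR98 and MIRLET7F-2.

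The profiles held between 22118095 (large intestine 1) and 25579064 (kidney 1) valid reads, so that 1 read stands for 0.391 to 0.452 RPTM (reads per 10,000,000 valid reads). Levels count reads without an added tail, and tails are described separately. Intervals below are Wilson intervals of 95% and cover counting error only, because amplified reads that carry no molecular identifiers cannot be taken as separate molecules. Markers were examined for liver, muscle, neural tissue and intestine, and none for kidney or lung. miR-122a-5p was at 7320 RPTM in liver and at 4.37 RPTM or less elsewhere, and miR-9-1-5p reached 383871 RPTM in occipital lobe and 261318 in the spinal cord profile but 988 RPTM or less elsewhere. The 3 muscle markers (miR-1, miR-133a and miR-206) were highest in both muscle profiles, although at 940 RPTM or less. Each marker level is that of 1 sequence entry, without reads that fitted several mature sequences, so that it can be too low. The study reported miR-1 and miR-133 as highly expressed in its muscle samples. miR-192, miR-194 and miR-215 were highest in both small intestine profiles. In liver miR-192 (1203628 RPTM) and miR-194 (5880 RPTM) were above both large intestine profiles, whereas miR-215 (4634 RPTM) was below them. In the 4 intestinal profiles the smooth muscle miRNA miR-143-3p alone took 2345167 to 3567909 RPTM. miR-451-5p, a miRNA of red blood cells, was highest in muscle 2 (5006 RPTM). The other blood marker examined, miR-223-3p, was highest in lung (816 RPTM) and at 47.1 RPTM in muscle 2. The profiles are of whole tissue, where fewer cells of a type and less RNA per cell cannot be told apart.

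let-7f-5p was the most abundant member and let-7a-5p the second in each of the 12 profiles. let-7f-5p ranged from 215241 RPTM in small intestine 2 to 1249023 RPTM in occipital lobe, with a median of 493777 RPTM. let-7a-5p ranged from 71250 to 640084 RPTM in the same 2 profiles, with a median of 165419 RPTM. These abundant members were thus 5.80 and 8.98 times as high in the highest as in the lowest profile.

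**Figure D1:**
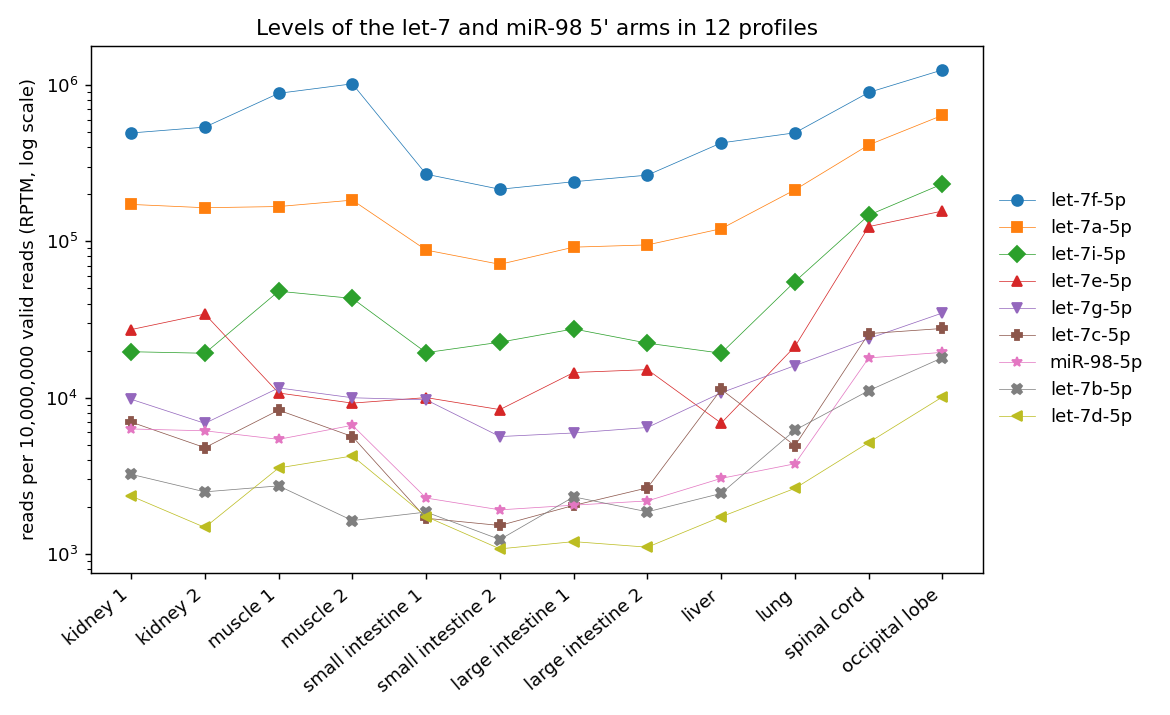
Level of each 5' arm (RPTM, logarithmic axis) in the 12 profiles; symbols are single profiles and thin lines only join the symbols of 1 member. let-7f-5p is above let-7a-5p in all 12 profiles, the occipital lobe is the highest profile for all 9 members, and the lines of let-7e-5p, let-7g-5p and let-7c-5p cross.

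The members in the middle of the order changed places between tissues. let-7i-5p ranged from 19224 (kidney 2) to 232885 RPTM (occipital lobe) and was above let-7e-5p in 10 of 12 profiles, the exceptions being both kidney profiles. let-7e-5p had the widest range of the 9, from 6868 RPTM in liver to 156212 RPTM in occipital lobe (22.7-fold). let-7g-5p ranged from 5634 to 34790 RPTM and was under let-7e-5p in 9 of 12 profiles. let-7c-5p ranged from 1521 to 27691 RPTM and reached 11291 RPTM in liver, its highest level outside the neural tissues. Between let-7c-5p and miR-98-5p (1914 to 19480 RPTM) there was no order that held across tissues, since let-7c-5p was the higher in 7 of 12 profiles and the median difference was 0.21 on the log2 scale. The lowest members were let-7b-5p (1237 to 18013 RPTM) and let-7d-5p (1078 to 10105 RPTM), of which let-7b-5p was the higher in 10 of 12 profiles. For comparison, the 2 profiles of a tissue differed by 0.12 (large intestine) to 0.33 (kidney) on the log2 scale in the median over the 9 members, and by at most 0.78 (let-7g-5p in small intestine).

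Both neural profiles lay above the other 10 for 8 of the 9 members in RPTM, a pattern found for 43.8% of the 370 mature sequences that passed the filter on low values. let-7f-5p was the exception, because muscle 2 (1017168 RPTM) was above spinal cord (895617 RPTM). After division by the TMM factors used in the tests below, the pattern held for only 4 of the 9 (let-7b-5p, let-7c-5p, let-7e-5p and let-7i-5p) and for 28.1% of the 370 sequences. Occipital lobe was the highest profile for all 9 members and for 25.9% of the 370 sequences. Small intestine 2 was the lowest for 7 of the 9 and for 11.9% of the 370, the exceptions being let-7e-5p (lowest in liver) and let-7i-5p (lowest in kidney 2). In sum, the 9 members made up 23.9% of all valid reads in occipital lobe and 16.6% in spinal cord, 11.4% and 12.8% in the muscle profiles, and between 3.29% (small intestine 2) and 8.18% (lung) in the others.

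Shares within the family do not depend on how the profiles are scaled against each other. let-7f-5p gave 77.5% and 79.4% of the family's 5' arm reads in muscle 1 and muscle 2, above every other profile (52.3% in occipital lobe to 70.8% in liver). let-7a-5p showed the reverse, with 14.6% and 14.3% in muscle against 20.01% to 26.8% elsewhere. In both neural profiles let-7e-5p (6.54% in occipital lobe and 7.46% in spinal cord) and let-7i-5p (9.75% and 8.83%) held larger shares than in any other profile, where they reached at most 4.41% (kidney 2) and 7.09% (large intestine 1). let-7e-5p also held a larger share in the kidney profiles (3.68% and 4.41%) than in muscle (0.938% and 0.720%), where its share was lowest. The large intestine profiles (3.73% and 3.67%) were close to kidney 1. let-7c-5p made up 1.88% of the family in liver and 1.54% in spinal cord, but only 0.420% to 0.643% in the 4 intestinal profiles. Muscle 2 (0.440%), lung (0.602%) and kidney 2 (0.616%) lay in the same range. No test was made on these shares.

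**Figure D2:**
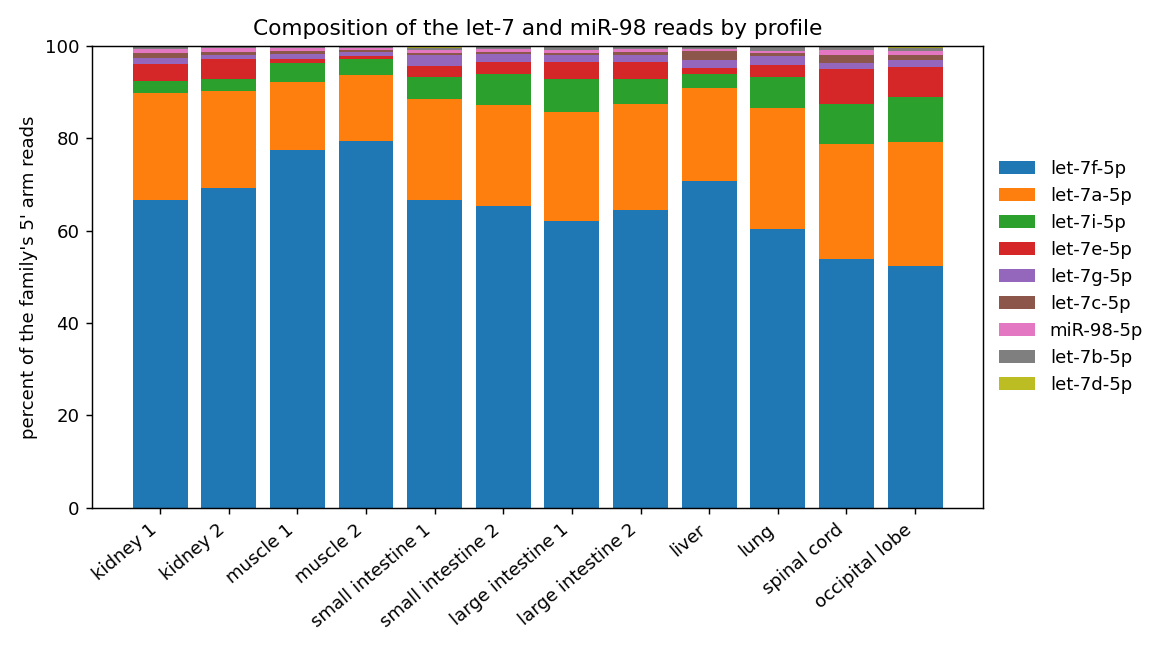
Share of each member in the family's 5' arm reads (percent, stacked bars from 0 to 100) in the 12 profiles. let-7f-5p is the largest part everywhere, from 52.3% in occipital lobe to 79.4% in muscle 2, and let-7i-5p and let-7e-5p take the largest shares in occipital lobe and spinal cord.

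Tissue differences were tested over all 370 sequences with edgeR's quasi-likelihood test with Benjamini-Hochberg adjustment, each group against the mean of the other 6, with occipital lobe and spinal cord as 1 neural group. Liver and lung had 1 profile each and were not tested. Of the members, 15 sequences (9 of the 5' arm and 6 of the 3' arm) passed the filter on low values. The scale of the profiles matters here. TMM factors, which assume that most miRNAs do not differ, ranged from 0.629 in large intestine 2 to 2.37 in spinal cord, and with total valid reads in their place the median log2 difference of all 370 sequences moved from 0.87 to 1.96 in the neural group, from -0.25 to -0.69 in kidney, from -0.12 to -0.81 in small intestine and from -0.10 to -0.81 in large intestine. In muscle it moved only from -0.19 to -0.26.

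In the neural group the 5' arms that rose most were those of let-7e, let-7i and let-7c. The let-7e-5p level was 156212 RPTM in occipital lobe and 124112 in the spinal cord profile, against 6868 to 34247 RPTM (median 12590) in the other 10 profiles. This was a log2 difference of 2.25 ± 0.30 (SE, adjusted p = 4.26e-05 by edgeR's quasi-likelihood test). The neural profiles did not overlap with the others. let-7i-5p was at 232885 and 146944 RPTM against 19224 to 55265 RPTM (median 22463), a log2 difference of 1.66 ± 0.31 (adjusted p = 0.000595). let-7c-5p was at 27691 and 25675 RPTM against 1521 to 11291 RPTM (median 4855), a log2 difference of 1.43 ± 0.28 (adjusted p = 0.000777). All 3 stayed past the threshold whichever profile was left out.

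let-7b-5p (18013 and 11084 RPTM against 1237 to 6197 RPTM, log2 difference 1.40, adjusted p = 0.00222) and miR-98-5p (19480 and 17950 RPTM against 1914 to 6655 RPTM, log2 difference 1.28, adjusted p = 0.00105) also rose in the neural group. The call of let-7b-5p was lost without occipital lobe (adjusted p = 0.106). Smaller differences were found for let-7d-5p (log2 difference 0.90, adjusted p = 0.0309) and let-7a-5p (0.88, adjusted p = 0.0428), which were close to the median of all sequences, 0.87, and rested on single profiles. That of let-7d-5p was lost without kidney 2, muscle 2 or occipital lobe (adjusted p of up to 0.913), and that of let-7a-5p was kept in only 2 of the 12 fits that left out a profile (adjusted p of up to 0.536). For let-7g-5p (0.53, adjusted p = 0.167) and let-7f-5p (0.21, adjusted p = 0.659) the test was not passed, and the difference of let-7f-5p changed sign in several alternatives (-0.13 with DESeq2). Of the 3' arms only let-7e-3p rose (2.08, adjusted p = 0.00427). Its level was 30.4 RPTM in occipital lobe, 59.4 in the spinal cord profile and 15.7 RPTM or less elsewhere, and without the spinal cord profile the adjusted p was 0.070.

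Altogether 8 of the 15 member sequences (53.3%) were higher in the neural group, against 43.2% of all 370 sequences, and the median log2 difference was 1.08 for the members and 0.87 for all. The share of members called was thus near that of all sequences, and the 5' arms were spread from 0.21 to 2.25. With total valid reads, 14 of 15 member sequences and 63.0% of all were higher, and the calls of all sequences went from 160 higher and 88 lower to 233 higher and 45 lower. let-7f-5p then passed as well (1.32, adjusted p = 0.00116).

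In muscle, let-7f-5p was higher and let-7e-5p lower than in the other groups. let-7f-5p was at 884449 RPTM in muscle 1 and 1017168 RPTM in muscle 2, against 215241 to 1249023 RPTM (median 459572) in the other 10 profiles, a log2 difference of 1.13 ± 0.38 (SE, adjusted p = 0.0345 by edgeR's quasi-likelihood test). Of all sequences 23.2% were higher in muscle. let-7e-5p was at 10704 and 9222 RPTM, against 6868 to 156212 RPTM (median 18176), a log2 difference of -1.05 ± 0.37 (adjusted p = 0.0413), and 13.8% of all sequences were lower. In RPTM both members overlapped with the other profiles. For let-7f-5p occipital lobe was above both muscle profiles and spinal cord (895617 RPTM) was above muscle 1. For let-7e-5p liver and the small intestine profiles reached as low. Both differences were nearly the same with total valid reads (1.12 and -1.07). Each was lost when muscle 1 or muscle 2 was left out (adjusted p of 0.167 and 0.0966 for let-7f-5p and 0.137 and 0.155 for let-7e-5p). The adjusted p was also between 0.0567 and 0.074 without any of several other profiles, i.e., small intestine 1, small intestine 2 and large intestine 1 for both, kidney 1 for let-7f-5p, and kidney 2 and large intestine 2 for let-7e-5p.

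In kidney, let-7e-5p and miR-98-5p were higher. let-7e-5p was at 27240 RPTM in kidney 1 and 34247 RPTM in kidney 2, against a median of 12590 RPTM in the others, a log2 difference of 1.30 ± 0.31 (adjusted p = 0.0124). miR-98-5p was at 6304 and 6135 RPTM against a median of 3409 RPTM, a log2 difference of 1.004 ± 0.27 (adjusted p = 0.0222). Only the neural profiles were higher for let-7e-5p, and for miR-98-5p the neural profiles and muscle 2. These 2 were called among 13.5% of all sequences higher in kidney. With total valid reads let-7e-5p stayed past the threshold (0.82, adjusted p = 0.0393), miR-98-5p did not (0.55, adjusted p = 0.0981), and let-7i-5p was lower (-1.08, adjusted p = 0.0333), where 8.65% of all sequences were higher and 9.46% lower. The calls of all sequences went from 50 higher and 16 lower to 32 higher and 35 lower. Without kidney 2 both calls were lost (adjusted p = 0.288 and 0.282), and that of miR-98-5p also without kidney 1 (adjusted p = 0.069).

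In small intestine, let-7c-5p was lower. It was at 1692 RPTM in small intestine 1 and 1521 RPTM in small intestine 2, under all of the other 10 profiles (2044 to 27691 RPTM, median 6307), and the log2 difference was -1.50 ± 0.35 (adjusted p = 0.0118). The call, 1 of the 5.14% of all sequences that were lower, was lost without small intestine 1 or small intestine 2 (adjusted p = 0.119 and 0.116). In large intestine none of the 15 member sequences was called by edgeR's quasi-likelihood test, against 15.4% of all sequences, and none by DESeq2; at an unadjusted p under 0.05, 1 member sequence was counted with either tool. Among the 5' arms let-7c-5p had the lowest difference (-0.81, adjusted p = 0.133), at 2044 and 2648 RPTM, and it passed with total valid reads (-1.53, adjusted p = 0.00554).

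For both intestines the calls depended on the scale. With total valid reads 7 of 15 member sequences were lower in small intestine (23.5% of all sequences) and 7 in large intestine (21.4%), and all 9 of the 5' arms had negative differences in both. The calls of all sequences went from 47 higher and 19 lower to 28 higher and 87 lower in small intestine (60 higher and 40 lower with DESeq2), and from 38 higher and 19 lower to 22 higher and 79 lower in large intestine. In these 4 profiles miR-192-5p was at 443626 to 1873826 RPTM, besides the reads of miR-143-3p given above. Outside the intestines miR-192-5p was at 1203628 RPTM in liver and at 253994 and 277148 RPTM in kidney. The part of the miR-192-5p and miR-143-3p reads in the let-7 levels was not tested.

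**Figure D3:**
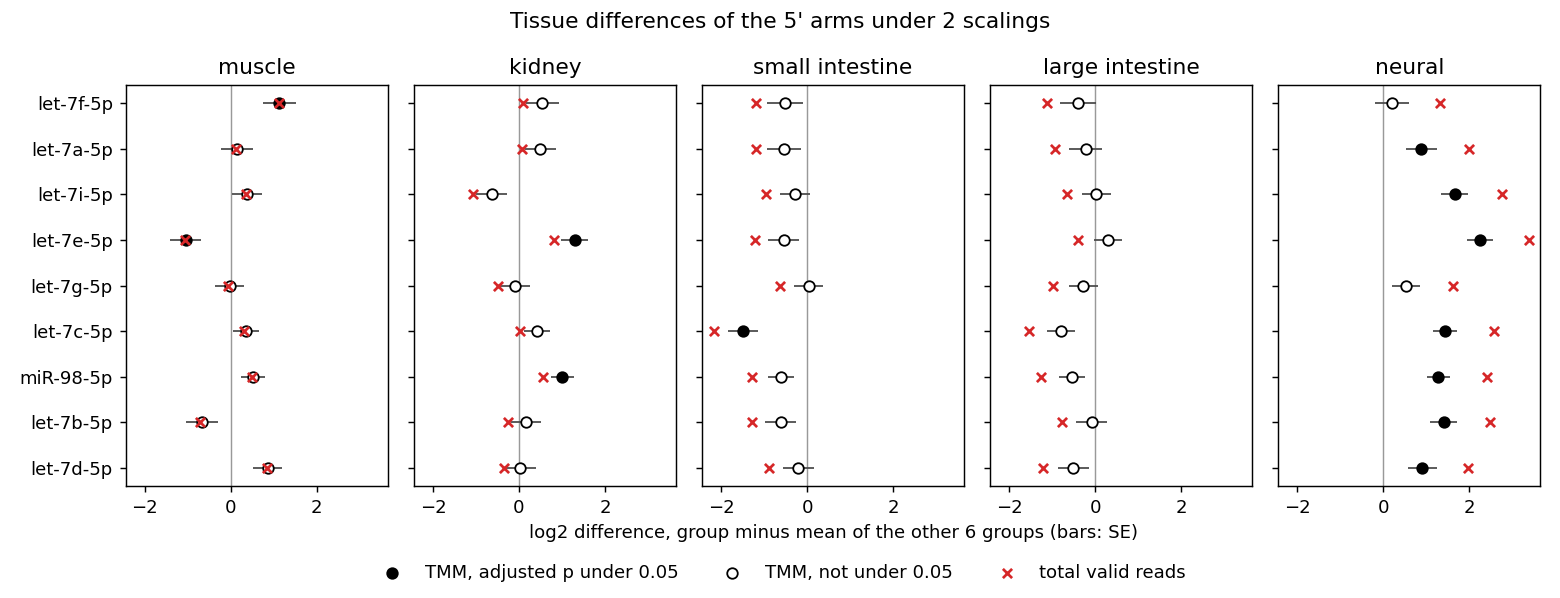
Log2 difference of each 5' arm between a group and the mean of the other 6 groups, with TMM factors (circles, filled when the adjusted p is under 0.05, bars for 1 SE) and with total valid reads (crosses). Crosses and circles nearly coincide in muscle, while in the intestines the crosses lie further left and in the neural group further right.

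miRNAs that are encoded close to let-7 genes in mammals were taken as a second list. These were miR-99a-5p (near let-7c), miR-125b-5p (near let-7c and let-7a-2), miR-99b-5p and miR-125a-5p (near let-7e) and miR-100-5p (near let-7a-2). In the neural group 4 of these 5 were higher and none lower, where 43.2% of all sequences were higher with a median log2 difference of 0.87. miR-99b-5p rose by 2.78 ± 0.43 (log2, SE, adjusted p = 0.000151), and its level ranged from 3585 RPTM in large intestine 2 to 155299 RPTM in occipital lobe. miR-125b-5p rose by 2.23 (adjusted p = 0.00025), miR-125a-5p by 1.41 (adjusted p = 0.0265) and miR-99a-5p by 0.98 (adjusted p = 0.0355). miR-99a-5p was also higher in muscle (1.28, adjusted p = 0.0178) and lower in large intestine (-1.57, adjusted p = 0.0355). None of the 5 was called in kidney or small intestine.

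The mature miRNA outside the family with the most similar pattern over the 12 profiles, by Pearson's r of log2(RPTM + 1), was found for each member as a description. It was miR-30c-1-3p for miR-98-5p (r = 0.98), miR-29c-3p for let-7d-5p (0.98), miR-99b-3p for let-7b-5p (0.97) and miR-301a-3p for let-7e-5p (0.95), and these 4 stayed the nearest after division by the TMM factors, with r of 0.95, 0.91, 0.91 and 0.92. For the other 5 members the nearest sequence changed with the scale. The 12 points share libraries, depth and scale, and the median r of a member with all other sequences was 0.425 to 0.601.

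Reads came almost only from the 5' arm. let-7d was the exception, with 6085 assigned reads on its 3' arm and 85741 on its 5' arm, so that the 3' arm made up 6.63% (6.47% to 6.79%) of both. This share was lowest in occipital lobe (2.05%) and 5.81% to 14.3% in the others, and kidney 2 (14.3%) was above kidney 1 (8.91%). In RPTM let-7d-3p ranged from 81.8 (large intestine 1) to 463 (spinal cord), and in occipital lobe, where let-7d-5p was highest, it was at 211 RPTM. For the other members the share of the 3' arm was 0.282% (let-7b), 0.0318% (let-7e) or less, down to 0.00224% for let-7f. These shares are of untailed reads, and with tailed reads counted on both arms they were 6.57% for let-7d, 0.418% for let-7b, 0.0737% for miR-98 in place of 0.00711%, 0.0387% for let-7e and 0.00597% for let-7f. A 3' arm sequence of let-7a-2 was read only 2 times in all profiles and that of miR-98 only 13 times without a tail. The study's sequence of mml-mir-98 ends with its 3' arm, so that any base after this arm counted as a tail. By comparison, the median share of the 3' arm was 62.3% among the 103 other groups of pre-miRNAs with at least 10 reads on both arms on average, and 14 of them were under 1%. This minimum leaves out pre-miRNAs with hardly any 3' arm reads, and only 6 member groups met it.

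The ratio of both arms was tested with limma in 6 of the member groups over the 5 contrasts. None of the 30 pairs of member and contrast was called, against 1.1% of 545 pairs for all, and 1 was under an unadjusted p of 0.05. This was let-7f in muscle, where the ratio of 3' to 5' reads was lower by 1.38 on the log2 scale (adjusted p = 0.0541 by limma, from 0.0166 to 0.221 over the other settings and up to 0.379 without muscle 2). On simulated data this fit made false calls among groups with few reads, so that its share over all pairs is uncertain.

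Nearly all 5' arm reads began at the annotated nt 1, so that the seed given above is the seed of these reads. The share was 99.3% for let-7g-5p, the lowest, and 99.96% for let-7b-5p and miR-98-5p, against a median of 98.8% over 198 other 5' arms with at least 100 reads. Their 3' ends varied more. Most untailed reads had 22 nt, but 39.3% (kidney 1) to 46.5% (occipital lobe) of the let-7e-5p reads ended at nt 21, compared with 17.2% to 22.3% for let-7a-5p and 3.35% to 5.04% for let-7i-5p. Reads of 23 nt were most common for let-7b-5p (8.64% to 15.7%). For several members the template itself continues with U after nt 22, and there a longer read and a read with an added U cannot be told apart.

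Reads of the 3' arms began less uniformly. The annotated 3' arm of let-7i was not the start of any read, as all of its 302 reads (100%, at least 98.7%) began 1 nt earlier, in 12 of 12 profiles. Of 223 other 3' arms with at least 100 reads, 16 had under 1% of their reads at the annotated start. The annotated and the most abundant read sequence are shown with their seeds in capitals, because the shift changes the seed.
let-7i-3p as annotated: uGCGCAAGcuacugccuugcu
let-7i-3p, most abundant read: cUGCGCAAgcuacugccuug
For let-7e-3p 30.1% (26.5% to 33.9%) of 588 reads began at nt 2 of the annotated sequence, in all 12 profiles. A start at nt 2 was also seen for 23.9% of 180 reads of miR-98-3p, 14.1% of 980 reads of let-7a-1/3-3p and 10.4% of 7785 reads of let-7d-3p. Such reads made up 0.996% for let-7f-2-3p and 0.751% for let-7b-3p. The arms of let-7d, let-7f-2 and miR-98 were placed by their most abundant read, so that their nt 1 comes from these same data. Both starts of let-7e-3p are shown, and for the start at nt 2 only untailed reads were compared. The untailed sequence shown was read 30 times. A U-tailed sequence that also began at nt 2 was read 128 times, of 177 reads with this start.
let-7e-3p as annotated: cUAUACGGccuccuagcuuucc
let-7e-3p, most abundant read starting at nt 2: uAUACGGCcuccuagcuuuccc

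Tails that do not match the hairpin were common on the 5' arms. The most abundant tailed reads of let-7a-5p are shown with the tail in capitals.
let-7a-5p with an A: ugagguaguagguuguauaguuA
let-7a-5p with a C: ugagguaguagguuguauaguC
The share of reads with A tails (1 or 2 A) was by its median largest for let-7b-5p, from 14.02% in occipital lobe to 23.6% in lung, and smallest for let-7f-5p, from 2.53% in muscle 2 to 8.32% in lung. The median over 141 sequences with at least 500 untailed reads on average was 3.76%, and all 9 members were above it. Lung had the largest A share for all 9 members. There the median of the 131 other miRNAs was also the highest of the 12 profiles (4.48%), and in muscle 2, where 6 of the 9 members were lowest, it was the lowest (2.25%).

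**Figure D4:**
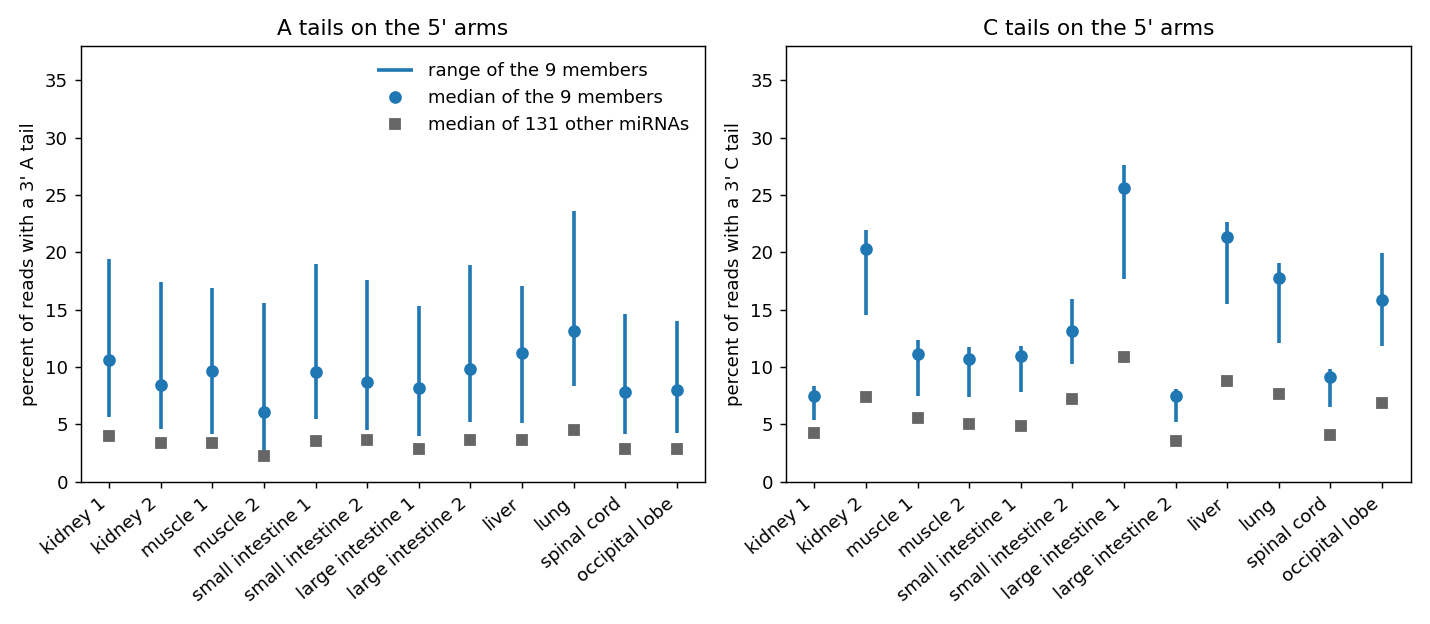
Share of 5' arm reads with A tails (left) and C tails (right) in percent of reads, by profile; bars span the 9 members, circles are their median and squares are the median of 131 other miRNAs. Members lie above the other miRNAs in their median in all 12 profiles, and C tails are highest in large intestine 1 for both.

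In the limma test of A tails against untailed reads, miR-98-5p (-0.93 ± 0.22 on the log2 scale, SE, adjusted p = 0.0471) and let-7d-5p (-0.90 ± 0.22, adjusted p = 0.0471) were lower in muscle. A tails made up 7.47% and 4.93% of the miR-98-5p reads in muscle 1 and muscle 2, against 7.82% (spinal cord) to 13.2% (lung) elsewhere, and 4.61% and 2.98% of the let-7d-5p reads, against 4.50% (spinal cord) to 10.2% (lung). The profiles did not overlap for miR-98-5p and overlapped for let-7d-5p. These 2 pairs stood against 9.93% of all sequences that were lower in muscle and 3.26% of 705 pairs over the 5 contrasts in either direction. The median log2 difference in muscle was -0.51 over the 10 member sequences and -0.35 over all 141. Both calls were lost in most fits that left out a profile, namely in 11 of 12 for let-7d-5p (all but the fit without muscle 1) and in 10 of 12 for miR-98-5p (all but those without muscle 1 or spinal cord), with the largest adjusted p, 0.303 and 0.294, without muscle 2.

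C at the end of reads was even more variable between libraries. C tails made up 25.6% of the let-7a-5p reads in large intestine 1 but 7.44% in large intestine 2, and 20.5% in kidney 2 but 7.46% in kidney 1. Large intestine 1 had the largest C share for all 9 members, and the median of the 131 other miRNAs was also highest there (10.9%, against 3.55% in large intestine 2). Since profiles of the same tissue differed this much, no comparison of tissues was made. Reads of let-7a-5p with C in place of U inside the sequence were far rarer (medians of 0.209% to 0.231% at nt 6, 13 and 14).

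U tails on 5' arms could be seen only where the template does not continue with U. They were common on let-7e-5p, where 8.17% (small intestine 1) to 13.4% (kidney 2) of the reads of 22 nt carried an added U. For let-7i-5p the range was 2.66% to 3.83%, and for miR-98-5p 1.03% to 1.97%. Both kidney profiles (12.01% and 13.4%) were above the other 10 for let-7e-5p.
let-7e-5p with a U: ugagguaggagguuguauaguuU

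On most of the 3' arms U was the main tail, whereas C was the main tail of let-7d-3p (1166 of 7785 reads) and let-7i-3p (21 of 302). U was found on 68.9% (66.1% to 71.5%) of 1105 reads of let-7f-2-3p, on 69.4% (62.4% to 75.7%) of 180 reads of miR-98-3p and on 54.0% (50.8% to 57.1%) of 932 reads of let-7b-3p. let-7f-1-3p (52.9% of 121 reads), let-7g-3p (32.6% of 141) and let-7a-1/3-3p (30.6% of 980) followed. By profile the share ranged from 49.5% (lung) to 79.1% (spinal cord) for let-7f-2-3p. For let-7b-3p it ranged from 30.7% (lung) to 80.0% (large intestine 2, 8 of 10 reads). The intervals do not cover this spread between profiles. The study's sequence of mml-mir-98 ends with the 3' arm, so that for miR-98-3p an added U cannot be told from a templated base. For let-7a-1/3, let-7b and let-7f-1 the template continues with U after nt 22, and a U added there counted as untailed. Nearly all of the U tails on these arms were a single U, e.g. 756 of 761 for let-7f-2-3p. Of these 761, 751 followed nt 21 of the arm, which was placed by its most abundant read. The main untailed and U-tailed reads are shown, with the tail in capitals.
let-7f-2-3p untailed: cuauacagucuacugucuuucc
let-7f-2-3p with a U: cuauacagucuacugucuuucU
let-7b-3p untailed: cuauacaaccuacugccuucc
let-7b-3p with a U: cuauacaaccuacugccuuccU
miR-98-3p with a U: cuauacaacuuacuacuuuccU
let-7d-3p untailed: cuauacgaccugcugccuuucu
For let-7d-3p, whose sequence has a U at nt 22, tails of U were found on 26 of 7785 reads. The 3' arm of let-7i also has a templated U there, and 5 of its 302 reads had U tails.

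Of the group I precursors, let-7c-3p had U tails that differ from the template on 0 of 39 reads (upper limit 8.97%). Its template continues with U after nt 22, where 29 of the 39 reads ended, and a U added there counted as untailed. The 0 and its limit therefore do not cover such tails. let-7a-2-3p had only 2 reads. let-7e-3p, however, had U tails on 39.97% (36.1% to 43.98%) of 588 reads, of which 220 of 235 followed nt 22 rather than nt 21. By profile the share with U tails ranged from 14.8% (large intestine 1, 4 of 27 reads) to 72.7% (muscle 2, 8 of 11 reads). Spinal cord gave 234 of the 588 reads. The most abundant U-tailed sequence began at nt 2 and was read 128 times.
let-7e-3p with a U: uauacggccuccuagcuuuccU
Pooled over arms, 37.4% of 629 reads of group I had U tails. The share was 52.0% of 3459 reads for the group II arms without a known templated U at nt 22, among them miR-98, whose template there was not available. These group II arms had the larger share in 8 of 12 profiles. In both groups a U added after nt 22 was missed where the template continues with U. No test was made. Per profile, the share of the group II arms ranged from 32.4% of 343 reads in lung to 67.3% of 257 reads in kidney 1. The 3' adapter also begins with U (T in DNA), so that a single adapter base left on a read cannot be told from a U tail. The part of such bases in these shares was not tested.

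**Figure D5:**
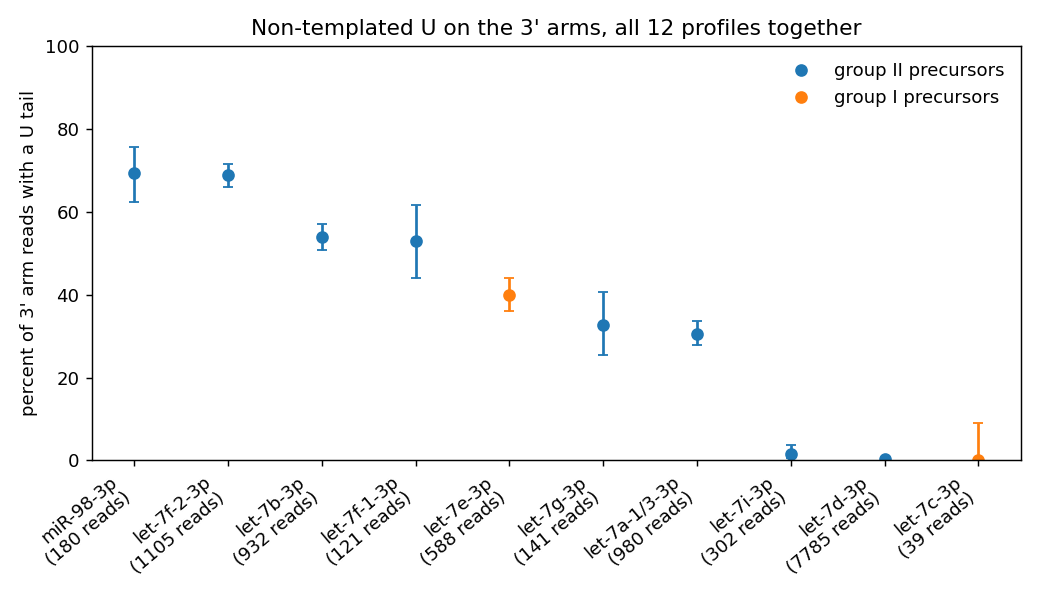
Share of 3' arm reads with a U tail that does not match the study's pre-miRNA sequence (percent, all 12 profiles together, bars for 95% Wilson intervals) for 10 arms, coloured by the textbook group of the precursor. The sequence of mml-mir-98 ends with its 3' arm, so that its U may be templated. A U added to the full arm of let-7a-1/3, let-7b, let-7c or let-7f-1 matches the template and is not counted. Arms of group II range from 0.334% (let-7d-3p, with a templated U) to 69.4% (miR-98-3p), and the group I arms are at 39.97% (let-7e-3p) and 0 (let-7c-3p).

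On the 5' arm, copies of let-7f and let-7a could be told apart only in reads that extend beyond the mature sequence. Reads that began before nt 1 and fitted a single copy numbered 70459 for mml-let-7f-2 and 261 for mml-let-7f-1. Such reads numbered 19725 for mml-let-7a-3, 2805 for mml-let-7a-2 and 232 for mml-let-7a-1. Reads of 23 nt that began at nt 1 and fitted a single copy numbered 733825 for mml-let-7f-2 and 76964 for mml-let-7f-1. On the 3' arm, 332 reads fitted let-7f-2 and 47 fitted let-7f-1. These counts describe reads with unusual ends and U tails can add to reads of 23 nt, so that they do not give the shares of the copies in the mature sequence.

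Reads that fitted several members were kept apart. Untailed, they numbered 44588 of 26238240 reads on the members, all of them fitted let-7a and let-7c and none fitted a pre-miRNA outside the family. Wrong bases could add more. Reads with a substitution that makes no other member gave the rate of each kind of substitution, and at the rate of A-to-G changes let-7a reads could make up 2.59% to 10.99% of the reads of let-7c-5p, with the highest value in small intestine 1. With the largest rate seen at a single position it would be up to 18.5%. In the other pairs that differ by 1 base it was up to 1.60% (let-7b-5p reads from let-7c-5p), or 2.82% with the largest rate. For let-7e-5p and let-7f-5p, reads from let-7a-5p would make up to 0.414% and 0.0184%, or 1.67% and 0.0724% with the largest rate.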

How the data were processed

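Small RNA libraries of 12 samples of 8 tissues were sequenced by the authors on an Illumina instrument. As deposited, each file lists unique sequences with their raw counts, which the authors made by a quality filter, removal of the 3' adapter and counting, without normalization. Each file belongs to 1 sample.

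The sequences were matched to 832 pre-miRNA sequences of the study without mismatch, or with a non-templated 3' tail of up to 2 nt after at least 18 matching nt. Untailed reads with both ends within 2 nt of the ends of a mature miRNA that fitted 1 distinct mature sequence were counted as levels, tailed reads were counted apart, and RPTM was calculated from all valid reads (22118095 to 25579064 per profile). No genome was used, so that reads from other loci could not be removed. The 3' arms of let-7d, let-7f-2 and miR-98 were placed by their most abundant read. The filter on low values (mean RPTM of 5 or more, SD of 1 or more) left 370 sequences.

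Abundance was tested with edgeR 4.0.16 in R 4.3.3 (TMM, 7 groups, quasi-likelihood test, two-sided, adjusted p under 0.05). Arm ratios (at least 10 reads on each arm on average) and A tails (at least 500 untailed reads) were tested with limma 3.58.1 on log2 ratios with a pseudocount of 0.5. DESeq2 1.42.0, other scales, filters, assignments, groups and pseudocounts, a block and leaving out profiles were alternatives. Python 3.11.15 with pandas, SciPy and matplotlib was used for the rest, and the fits were checked on simulated data, where the arm ratio fit made false calls among groups with few reads. The p-values measure the spread between these samples. The members, lists and tests were chosen with earlier results of these data known. Named sequences are the members, tissue markers, 5 genomic neighbours and, where it did not depend on the scale, the non-member nearest in pattern to a 5' arm.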

Additional observations from a re-analysis of the deposited data

How the results depend on the processing

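The differences that passed the test kept their direction in every alternative that was run. In the neural group, the difference of let-7f-5p (0.21, not called) turned to -0.13 with DESeq2, -0.0898 with reads counted for each sequence they fit, -0.23 with reads identical to the mature sequence and, when 1 profile was left out, ranged from -0.30 (without occipital lobe) to 0.28 (without spinal cord). That of let-7g-5p (0.53, not called) ranged from -0.023 to 0.62 without the same profiles. With total valid reads in place of TMM factors the members called numbered 7 in small intestine, 7 in large intestine and 14 in the neural group, in place of 1, 0 and 8. In muscle, with 2 members called, DESeq2 gave 4, reads identical to the mature sequence gave 4, and the 8 numbered profiles without a replicate block gave 4. Without the filter on low counts kidney had 1 in place of 2, and with 8 tissues as groups large intestine had 1. When 1 profile at a time was left out, the members called were 0 to 3 in muscle, 0 to 3 in kidney, 0 to 1 in small intestine, 0 in large intestine, 5 to 8 in the neural group, 0 to 1 for the arm ratio and 0 to 6 for A tails. For the arm ratio (0 pairs), a pseudocount of 5 gave 1 and precision weights gave 1, in both cases let-7f in muscle. For A tails (2 pairs), a pseudocount of 5 gave 10, a minimum 10 times as high gave 10, a variance trend over reads gave 10, precision weights gave 4, tails of exactly 1 A gave 1, and 8 tissues as groups gave 0; the cause was not tested. Deviations of profiles with the same replicate number were little correlated (mean correlation 0.03 over 6 pairs of tissues, from -0.14 to 0.14). This cannot tell whether the numbers stand for the animals, because a small effect of the animal would look the same. A replicate block on the 8 numbered profiles gave 3, 2, 1 and 0 members in muscle, kidney, small intestine and large intestine and 0 pairs for the arm ratio and A tails, and the same profiles with no replicate block gave 0 pairs for both. The fits without a block on 8 profiles, the weights, the trend and the pseudocount in proportion to the overall ratio were chosen after seeing the data. Where leaving out a profile left a group with 1 sample, its spread was taken from the other groups. Each tissue had 1 or 2 profiles and most 3' arms had few reads, which limits the precision of all of these values.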
